A study of Mus musculus with 46 samples.

Results

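Martinotti cells are inhibitory neurons of the cerebral cortex that contain somatostatin. The cells described here are the 62 of 584 single GABAergic neurons of mouse frontal cortex whose cell name marks them as Martinotti cells, in 4 of 46 libraries. They were picked by hand for red fluorescence from Sst-Flp; CR-Cre; Ai65 mice, in which the Ai65 reporter needs both the Flp recombinase of the somatostatin (Sst) driver and the Cre recombinase of the calretinin (CR, gene Calb2) driver. Sst and Calb2 therefore chose the cells, and their values are given without a test. The driver genes of all types are left out of the counts by gene list. A cell that used both drivers at any earlier time keeps the reporter, so present Calb2 RNA was not a condition. The tissue was layer 2/3 of frontal cortex from 2 female mice aged 35 days.

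The other 522 cells form 6 types. Long-projecting cells (136 cells) came from Sst-Flp; Nos1-Cre; Ai65 males of 28 to 29 days and interneuron-selective cells (63) from Vip-Flp; CR-Cre; Ai65 females of 32 days. CCK-basket cells (64) came from Vip-Flp; CCK-Cre; Ai65 males of 39 to 40 days and PV-basket cells (127) from Pv-iresCre; Ai14 mice of either sex and 58 to 83 days. Chandelier cells came from Nkx2.1-CreER; Ai14 mice, with 1 upper library labelled Ai15, and were taken as deep cells of males of 34 days (52) and as upper cells of females of 40 to 58 days (80). The labels of every sample, Martinotti cells included, give tamoxifen on embryonic day 17.5, a step that acts on the inducible Nkx2.1-CreER driver alone. Age, sex, driver and flow cell differ between the types, and only interneuron-selective libraries shared the Martinotti flow cell. A difference between types and a difference in age, sex, cross or flow cell therefore cannot be told apart.

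Martinotti cells send their axon up to layer 1, where they inhibit the apical dendrites of pyramidal neurons. Excitatory synapses onto them are known for facilitation, which depends on the postsynaptic protein Elfn1 and on presynaptic metabotropic receptors. They release GABA together with peptides, and they arise, like PV-basket, chandelier and long-projecting cells, from the medial ganglionic eminence of the embryo, whereas Vip cells arise from the caudal eminence.

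Libraries 1 and 2, with 16 cells each, came from animal 1, and libraries 3 and 4, with 15 cells each, from animal 2. Animal 1 was sequenced in lane 3 and animal 2 in lane 4, so animal and lane cannot be told apart. The totals of the libraries are given in order. They were 2701930, 3115230, 1119940 and 1358910 expected counts, and single cells held 11303 to 707657 with a median of 107782. Values below are in CPM, the expected counts of summed cells scaled to a common library total, as library 1, 2, 3 and 4 in that order, or as the mean ± SD over the 2 animals. Gene length is not in them, so levels are compared between types and not between genes. A gene with no count in the 62 cells lies under 0.362 CPM, the worth of 3 counts over the type, and this covers counting error only. The libraries used 16 cell barcodes, of which 14 occur in all 4 Martinotti libraries and all 16 also in the interneuron-selective libraries, sequenced on the same flow cell.

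Cells within a library differed little beyond counting noise. The squared difference between cells was 1.09 to 1.11 times that of counting noise within the Martinotti libraries, but 45.8 to 59.8 times between pairs of libraries. This ratio rises with depth, and a library sums 15 or 16 cells, so the size of the contrast is partly one of depth. The ratio was 59.8 for the libraries of animal 1, 45.8 for those of animal 2 and 51.1 to 56.0 for libraries of different animals. Libraries 1 and 2 were the deepest, so the ratio does not rank the pairs by distance. The median fold between libraries, over tested genes of at least 50 CPM, was 1.54 for animal 1 and 1.81 for animal 2. Whether a value of 1 cell is independent of the other cells of its library was not tested, which limits the shares of cells below, and cells were not used as replicates.

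Markers of other cell types were low and uneven. Of 10 excitatory-neuron markers, Neurod1, Neurod2, Neurod6, Emx1, Tbr1 and Slc17a6 were at 0, and the summed level of the list was 180.6, 103.4, 266.1 and 155.3 CPM. Of the 6 tested, Slc17a7, a vesicular glutamate transporter, and Nrgn, neurogranin, were called higher than in the other types. Slc17a7 was at 5.55, 13.8, 99.1 and 2.94 CPM (adjusted p = 0.0467; 0.635 without library 3 and 0.658 without animal 2). Nrgn was at 58.5, 28.9, 108 and 82.4 CPM (adjusted p = 0.0126; 0.213 without animal 2). Library 4 stood apart for mural cells of blood vessels, with a summed level of 267 CPM against 8.99 to 14.3 in the others, and for blood cells, with 255 CPM against 0 to 0.642. Pdgfrb, the pericyte receptor for platelet-derived growth factor, was at 0, 0, 0 and 146 CPM and was the only mural marker called higher (adjusted p = 0.00746; 1 without animal 2). Markers of endothelial cells summed to 68.4 CPM in library 4 and to 8.99 to 16.1 CPM in the others. Microglial markers summed to 0.37 to 58.1 CPM, astrocyte markers to 54.2 to 114 CPM and oligodendrocyte markers to 31.3 to 259 CPM. The part of these cells in the results below was not tested, and where leaving out an animal or library 4 changed the calls in a gene list, those counts are given beside it.

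Animal 1 also carried RNA of long-projecting marker genes. Their summed level was 970 and 1094 CPM in libraries 1 and 2 against 420 and 407 CPM in libraries 3 and 4. Chodl, which marks cortical long-range Sst neurons, was at 140, 128, 0 and 0 CPM, with a count in 16 of 16, 16 of 16, 0 of 15 and 0 of 15 cells, and the long-projecting mean was 601 ± 87.3 CPM (n = 4 animals). Tacr1, the substance P receptor of the same neurons, was at 220, 259, 0 and 3.68 CPM against 964 ± 195 CPM. Nos1, the driver of the long-projecting cells, was at 6.29, 24.1, 1.79 and 2.21 CPM against 141 ± 16.8 CPM. Besides the driver Nos1, 4 of 5 tested long-projecting markers were called higher than in the mean of the 6 types, namely Chodl, Cort, Pde1a and Ptn, but 1 without animal 1 and 5 without animal 2. The Chodl mean was 0.667 times that of the other types on the linear scale. The test averages the 6 types on the log scale and called Chodl higher. In edgeR's test of animal 2 against animal 1, Chodl did not pass (adjusted p = 0.551). Chodl and Tacr1 separated the 2 animals without overlap, a trait not counted over all genes. Their level in animal 1 was below that of long-projecting cells. For genes followed one by one through the fits that left out a sample, the calls below therefore come with the fit without animal 1 where it ended them.

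Of the driver genes, Sst was at 1080, 1345, 1717 and 1912 CPM, and every Martinotti cell had Sst counts, whereas 1 of 63 interneuron-selective cells did. Long-projecting cells, the other Sst type, had 2283 ± 286 CPM. Calb2, which encodes calretinin, was at 33.7, 149, 196 and 41.9 CPM and so was uneven within each animal. Interneuron-selective cells, made with the same CR-Cre driver, had 438 ± 69.5 CPM (n = 2), and long-projecting cells, made without it, had 185 ± 121 CPM (n = 4), both above the Martinotti mean of 103 ± 11.4 CPM. Vip was at 0 in all 4 libraries, and Pvalb, the parvalbumin gene that drives the reporter in PV-basket cells, at 0, 7.38, 0 and 0.736 CPM.

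Among the other 4 genes used as Martinotti markers, 3 lay above the mean of every other type in every library. Reln, a secreted glycoprotein that binds lipoprotein receptors, was at 648, 888, 1455 and 1147 CPM, and the highest other type, deep chandelier cells, had 216 CPM. Its mean of 1032 ± 360 CPM was 14.5-fold that of the other types, with a log2 fold change of 4.23 ± 0.37 (SE) and an adjusted p of 1.91e-05 in edgeR's quasi-likelihood test. Grin3a, an NMDA receptor subunit that lowers calcium entry, was at 651, 890, 600 and 679 CPM and 13.0-fold above the others (4.32 ± 0.42, adjusted p = 4.04e-05). No library of these genes fell into the range of another type mean.

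Elfn1 was at 613, 598, 769 and 879 CPM and 3.40-fold above the others (2.20 ± 0.31, adjusted p = 0.00079). All 4 libraries were above the interneuron-selective mean of 469 ± 50.0 CPM, the highest of the other types, but interneuron-selective libraries reached 614 CPM and that pair did not pass (0.74 ± 0.48, adjusted p = 0.469). Chst15, a sulfotransferase of chondroitin sulfate chains, was at 353, 69.3, 520 and 8.09 CPM. Its counts occurred in every cell of libraries 1 to 3 and in 7 of 15 cells of library 4, which lies below the long-projecting mean of 18.4 CPM. The mean of 220 CPM was 27.5-fold that of the others (adjusted p = 2.76e-05), and its SD over animals of 26.9 hides a 64.2-fold range over libraries, since each animal has a high and a low library.

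**Figure D1:**
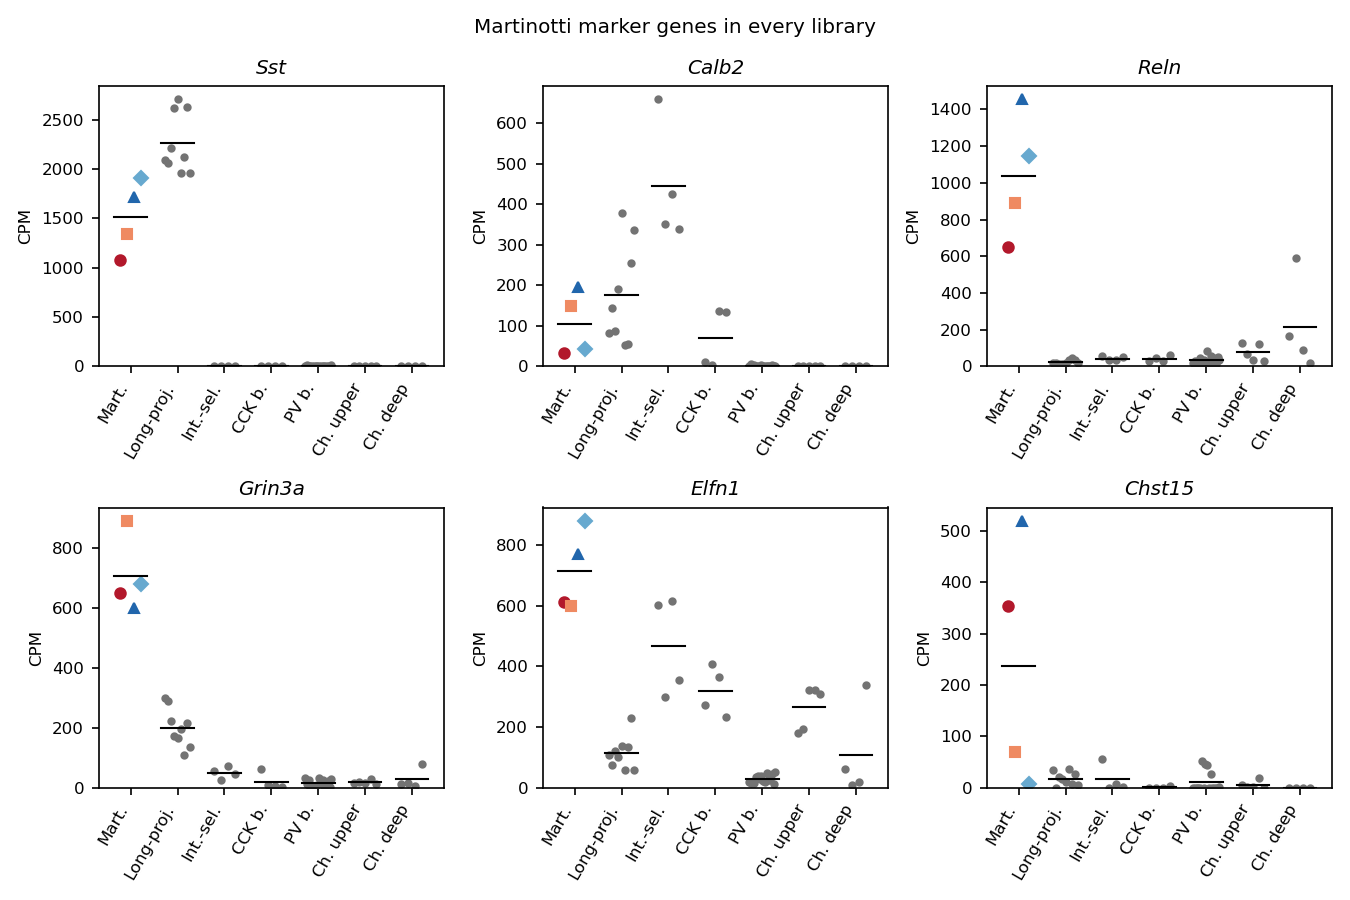
Level of 6 Martinotti marker genes (CPM, linear axis from 0) in each library of the 7 types. Points are libraries, the Martinotti ones in colour, and the black line is the mean over the libraries of the type; the Martinotti libraries lie above all other type means for Reln, Grin3a and Elfn1, while Sst is shared with long-projecting cells, Calb2 with interneuron-selective cells and Chst15 runs from 8.09 to 520 CPM.

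Some peptide genes were higher in Martinotti cells. Of 22 tested genes of neuropeptides and hormones, 6 were higher than in the other types and 1 was lower, and the median log2 fold change of the list was -0.27 against 0.01 over all 15533 tested genes. Over all genes, 3.91% were called higher and 1.69% lower at an adjusted p under 0.05. The 6 were Cort, Npy, Crhbp, Vgf, Nppc and Chga, and the lower one was Pthlh. Without library 4 the counts were 7 and 1, without animal 1 they were 4 and 1 and without animal 2 they were 6 and 2.

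Promoters of Sst and of these peptide genes are shown because somatostatin transcription is the classical case of control by cAMP, through the palindrome TGACGTCA near its start. RefSeq (GRCm38.p6) gave the 300 bases from 250 before to 50 after the start for 6 of the 7 genes. Each promoter was searched on both strands for TGACGTCA and for its parts TGACG and CGTCA, which overlap in the palindrome. The 4 with a match follow, 5′ to 3′ on the strand of the gene, with the match in capitals: Sst at chr16:23890795-23891094 (minus strand), Cort at chr4:149126714-149127013 (minus), Crhbp at chr13:95444782-95445081 (minus) and Chga at chr12:102554691-102554990 (plus).
Sst: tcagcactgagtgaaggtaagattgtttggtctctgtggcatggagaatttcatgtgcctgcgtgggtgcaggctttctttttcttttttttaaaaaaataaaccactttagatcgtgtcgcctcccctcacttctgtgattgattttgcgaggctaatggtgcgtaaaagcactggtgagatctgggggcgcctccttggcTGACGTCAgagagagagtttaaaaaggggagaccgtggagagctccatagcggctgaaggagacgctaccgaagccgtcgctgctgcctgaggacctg
Cort: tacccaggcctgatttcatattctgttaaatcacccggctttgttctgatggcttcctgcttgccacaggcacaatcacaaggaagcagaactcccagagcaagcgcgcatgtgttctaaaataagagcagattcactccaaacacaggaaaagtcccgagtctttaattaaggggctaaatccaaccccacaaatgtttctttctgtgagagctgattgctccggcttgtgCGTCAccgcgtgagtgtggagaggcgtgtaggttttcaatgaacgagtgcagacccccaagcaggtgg
Crhbp: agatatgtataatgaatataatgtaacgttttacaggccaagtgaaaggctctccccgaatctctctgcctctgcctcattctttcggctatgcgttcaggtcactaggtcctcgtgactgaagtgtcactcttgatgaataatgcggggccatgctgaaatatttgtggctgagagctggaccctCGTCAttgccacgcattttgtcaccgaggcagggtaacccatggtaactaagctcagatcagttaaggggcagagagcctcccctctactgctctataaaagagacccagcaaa
Chga: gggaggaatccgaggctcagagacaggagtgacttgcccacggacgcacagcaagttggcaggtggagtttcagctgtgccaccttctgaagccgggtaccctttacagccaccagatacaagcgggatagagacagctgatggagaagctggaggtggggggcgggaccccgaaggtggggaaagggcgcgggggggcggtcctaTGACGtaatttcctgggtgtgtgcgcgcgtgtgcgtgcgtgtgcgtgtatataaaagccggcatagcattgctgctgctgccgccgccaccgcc
The match began 48, 18, 64 and 44 bases before the start in Sst, Cort, Crhbp and Chga. Sst alone among the 6 held the whole palindrome, which occurs in 588 of 32851 RefSeq promoters of this length, or 1.79%. A part of it occurs in 6837 promoters, or 20.8%, and was not found in this window of Npy and Nppc. A match describes the letters only.

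Npy, the precursor of neuropeptide Y, was at 3061, 4623, 3164 and 3782 CPM, above the mean of every other type except long-projecting cells, which had 18772 ± 2217 CPM. Its log2 fold change against the 6 types, which the test averages on the log scale, was 3.75 ± 0.32 (edgeR adjusted p = 1.68e-05). On the linear scale the Npy mean was only 1.14 times that of the 6 types. Crhbp, which binds corticotropin-releasing hormone outside the cell, was at 1859, 1945, 2466 and 1542 CPM. Its log2 fold change was 5.75 ± 0.76 (edgeR adjusted p = 0.000683), and on the linear scale it was 2.16-fold above the others. Long-projecting cells had 5118 ± 879 CPM of Crhbp and interneuron-selective cells 0.679 CPM. Both genes were thus shared by the 2 Sst types.

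Vgf, the precursor of several secreted peptides, was instead highest in Martinotti cells. It was at 610, 942, 1734 and 1673 CPM against 370 ± 52.0 CPM in long-projecting cells, the next type (against all 6 types 8.02-fold; 3.90 ± 0.26, adjusted p = 1.63e-06). Libraries of animal 2 were higher than those of animal 1, and all 4 lay above each of the 42 other libraries. Nppc, the precursor of C-type natriuretic peptide, was at 24.8, 66.1, 104 and 24.3 CPM against at most 9.52 CPM in another type (19.0-fold; 5.62 ± 0.79, adjusted p = 0.00087).

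Cortistatin and chromogranin A were less even. Cort, a peptide related to somatostatin, was at 27.4, 189, 15.2 and 33.9 CPM, with library 2 alone at the long-projecting level of 173 ± 107 CPM. Its call (adjusted p = 0.0246) was lost without library 2 (0.216) and without animal 1 (0.446). Chga, a protein of dense-core vesicles, was at 170, 227, 204 and 190 CPM, 2.20-fold above the others (1.15 ± 0.24, adjusted p = 0.0121), with an adjusted p of 0.0862 without animal 1 and 0.0743 without animal 2.

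Cck, a driver gene of the CCK-basket cells, was at 12.6, 26.0, 0 and 0.736 CPM against 1963 CPM in those cells. Pthlh, parathyroid hormone-like peptide, had no count in any of the 62 cells, while the other types averaged 162 CPM, so that it was at least 447-fold lower (adjusted p = 0.00399). That call was lost without long-projecting animal 18, where the adjusted p was 1.

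Receptors for peptides had 4 of 26 tested genes called higher and 0 lower (3 higher without animal 1 or animal 2), with a median log2 fold change of -0.63. Oxtr, the oxytocin receptor, was at 233, 48.5, 92.0 and 75.1 CPM, with library 1 alone at the long-projecting mean of 233 ± 68.1 CPM and the others below it, and 2.62-fold above the mean of the 6 types (adjusted p = 6.38e-05). Interneuron-selective libraries had no Oxtr count. Npr3, the clearance receptor that binds the peptide of Nppc, was at 32.9, 18.9, 0 and 31.6 CPM against at most 1.99 CPM in another type (29.6-fold, adjusted p = 0.00872). The other 2 called genes were Sstr1, a somatostatin receptor, and Oprk1, the kappa opioid receptor. Npr3, Sstr1 and Oprk1 were not followed one by one through the fits that left out a sample, so which calls these fits ended is not given.

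Across all genes, Martinotti cells differed from the mean of the other 6 types in 870 of 15533 (5.6%), 607 higher and 263 lower, and 3076 passed an unadjusted p under 0.05. DESeq2 called 843 higher and 888 lower, a fit with libraries weighted equally 345 and 391, and a fit with a spread for each type 333 and 32, so the balance of directions depends on the fit. All 4 libraries lay above every other type mean in 210 genes (1.35%) and below every one in 574 (3.7%). In 34 genes (0.219%) all 4 libraries lay above each of the 42 other libraries, and 32 of these were called higher. Besides genes named elsewhere they included Cxcr4, the chemokine receptor that guides migrating interneurons, at 13.7, 52.0, 49.1 and 11.8 CPM against at most 2.49 CPM in any other library. Lrig1, a membrane inhibitor of growth factor receptors, and Runx1t1, a transcriptional corepressor, were the 2 that were not called.

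The 24 genes named for the largest ratio of their lowest library to the highest mean of another type ranged from 3.73-fold (Gosr2) to 19.0-fold (Nppc) above the others. Bai1, an adhesion G-protein-coupled receptor, came first, with 258, 291, 146 and 273 CPM against 27.6 CPM (12.6-fold; 3.76 ± 0.32, adjusted p = 1.66e-05). Il34, a secreted ligand of the microglial receptor Csf1r, was at 460, 210, 378 and 399 CPM against 46.1 CPM (3.73 ± 0.51, adjusted p = 0.000683). Every library of both genes was above all 42 other libraries.

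Unc13c, a priming factor of synaptic vesicles, was at 171, 140, 266 and 598 CPM, with library 4 highest, against 40.7 CPM in the next type (3.47 ± 0.40, adjusted p = 0.000172). Slc30a3, the vesicular zinc transporter, was at 251, 667, 474 and 442 CPM against 91.2 CPM in PV-basket cells (15.3-fold, adjusted p = 0.00272). It was the only one of 20 tested genes of zinc transport and binding to be called against the 6 types, a share near the 3.91% over all genes. Atp2b4, a calcium pump of the plasma membrane, was at 225, 268, 417 and 179 CPM against 89.4 CPM in long-projecting cells (4.19 ± 0.44, adjusted p = 7.56e-05).

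Dgkg, a diacylglycerol kinase, was at 972, 661, 638 and 824 CPM against 311 CPM in long-projecting cells (2.20 ± 0.20, adjusted p = 2.47e-05). Mtus2, a microtubule-associated protein, was at 850, 736, 756 and 522 CPM against 226 CPM (2.34 ± 0.27, adjusted p = 0.000164). Neither overlapped any library of another type. Snx8, a sorting nexin of endosomes, Gosr2, a Golgi SNARE protein, Sirt4, a mitochondrial sirtuin, and Frmd4b, a FERM-domain protein, were 5.79, 3.73, 5.91 and 5.76-fold above the others. The calls of Gosr2 (adjusted p of 0.0648 and 0.0965) and Sirt4 (0.0579 and 0.0749) were lost without animal 1 or without animal 2.

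**Figure D2:**
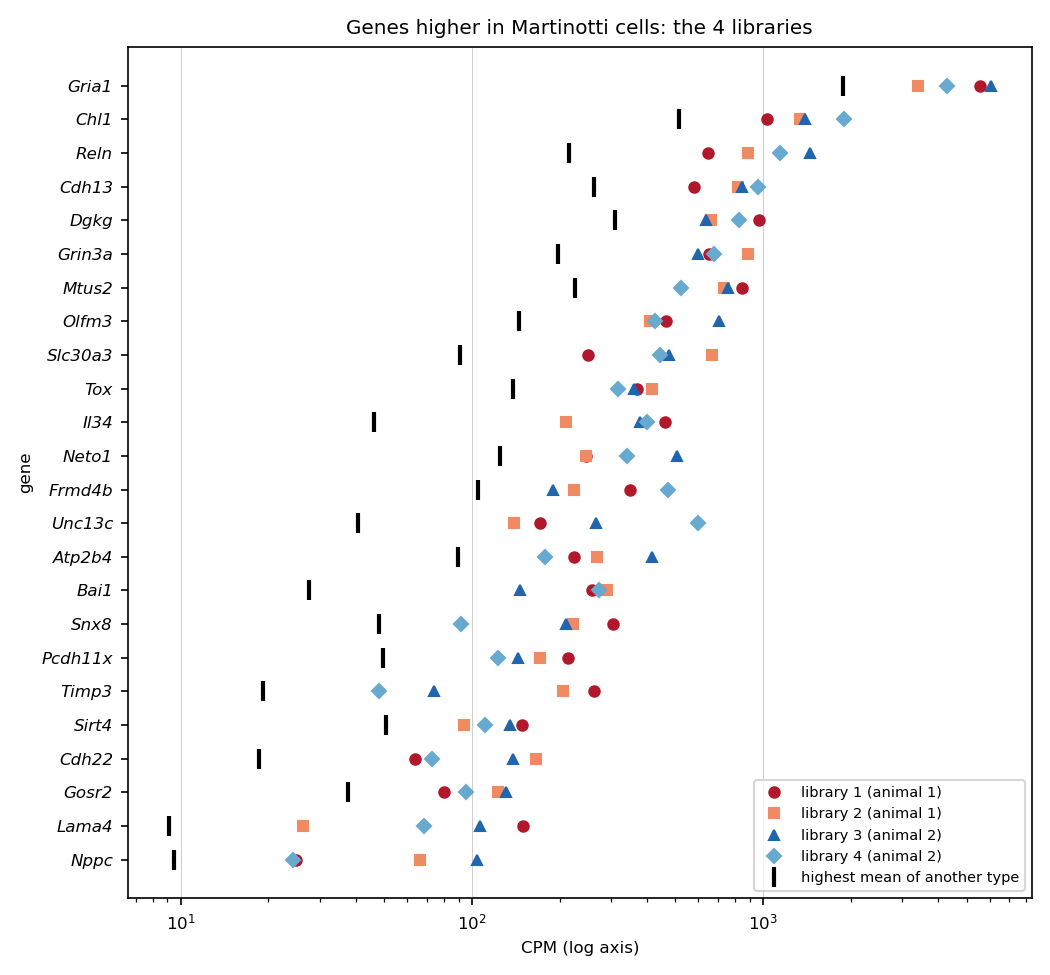
Level (CPM, log axis) of the 24 named higher genes in the 4 Martinotti libraries (symbols), with a tick for the highest mean of another type. All 4 symbols lie to the right of the tick in each gene, as the rule for naming required; the gap from tick to lowest library is widest for Bai1, and Lama4 and Timp3 have their libraries farthest apart.

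By gene family, 8 of 22 AMPA receptor genes and partners were higher and 0 lower, and 5 of 7 genes of the medial eminence lineage were higher. Differences between families were not tested.

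**Figure D3:**
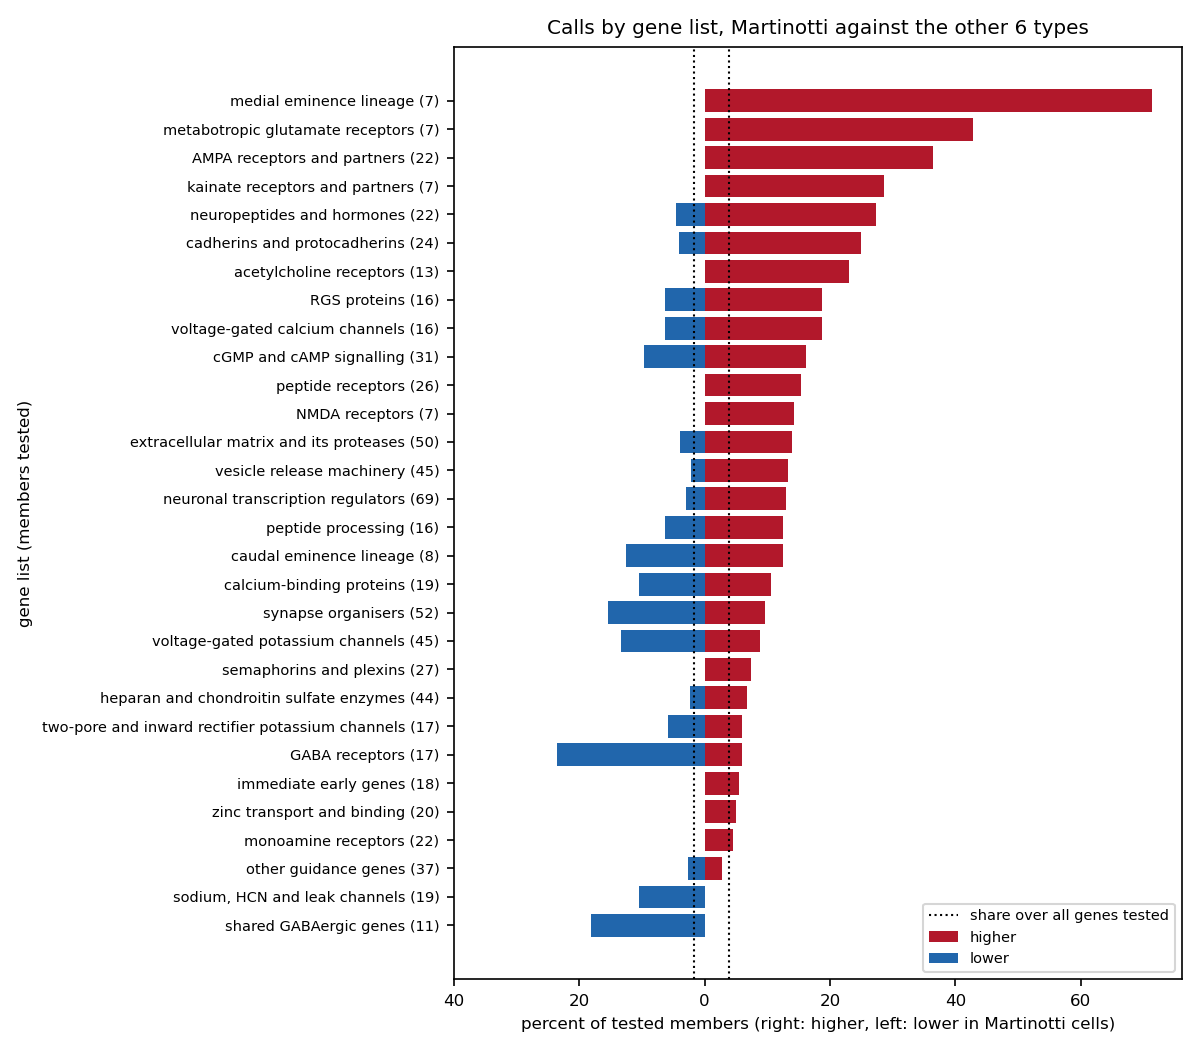
Percent of the tested members of each gene family, driver genes left out, called higher (right) or lower (left) in Martinotti cells than in the mean of the other 6 types, at an edgeR adjusted p under 0.05. Dotted lines mark the share over all tested genes, 3.91% higher and 1.69% lower; the families with the largest higher share are the medial eminence lineage and the metabotropic glutamate receptors, with 5 of 7 and 3 of 7 members.

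Several glutamate receptor genes were higher in Martinotti cells. Gria1, the GluA1 subunit of AMPA receptors, was at 5561, 3416, 6064 and 4293 CPM, while the highest other type, deep chandelier cells, had 1885 CPM (4.18-fold; 2.17 ± 0.21, adjusted p = 4.17e-05). Gria3 was at 446, 324, 401 and 436 CPM (1.68 ± 0.27, adjusted p = 0.00326) and overlapped PV-basket cells with 427 CPM. Gria2, the subunit that makes AMPA receptors tight to calcium, was at 291, 215, 230 and 211 CPM and did not pass (-0.64 ± 0.20, adjusted p = 0.0837), nor did Gria4 (0.54 ± 0.20, adjusted p = 0.126).

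Of the AMPA receptor partners, Olfm3, a secreted olfactomedin found in native AMPA receptor complexes, was at 466, 409, 707 and 426 CPM against 145 CPM in long-projecting cells (2.64 ± 0.23, adjusted p = 1.66e-05). Shisa6, which keeps the receptors from desensitizing, was at 323, 260, 240 and 269 CPM against 214 CPM in interneuron-selective cells (2.23 ± 0.32, adjusted p = 0.00111). Cacng3, a transmembrane regulator that aids receptor traffic, was at 325, 340, 105 and 333 CPM, with library 3 alone below the long-projecting mean of 140 CPM (3.08 ± 0.42, adjusted p = 0.000748). The list's median log2 fold change was 0.74.

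Its relatives Cacng4, Cacng5 and Cacng8 were also called higher, with means of 26.5 ± 13.4, 87.5 ± 4.56 and 47.6 ± 23.9 CPM and adjusted p of 0.012, 0.0196 and 0.00628. Cacng5 lay below the CCK-basket mean of 126 CPM and was 2.19-fold above the mean of the other types. Cacng4 did not pass without animal 2 (0.0975), Cacng8 without animal 1 (0.106) and Cacng5 without either (0.0833 and 0.0913). The count of higher members was 8 without library 4 and 6 without animal 1 or without animal 2.

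Among the other ionotropic receptors, Grin3a was the only one of 7 NMDA receptor genes called. Grin1, the obligatory subunit, was at 227, 186, 277 and 216 CPM (0.82 ± 0.32, adjusted p = 0.164), and Grin2a and Grin2b did not pass either (adjusted p of 0.204 and 0.869). Of 7 kainate receptor genes 2 were higher, also without either animal or library 4. Grik3, the GluK3 subunit, was at 362, 352, 325 and 501 CPM against 193 CPM in long-projecting cells (1.58 ± 0.21, adjusted p = 0.00057). Neto1, an auxiliary subunit of kainate receptors, was at 247, 247, 508 and 341 CPM against 125 CPM in CCK-basket cells (3.04 ± 0.40, adjusted p = 0.000543). All libraries of both were above the other type means.

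Of 7 tested metabotropic glutamate receptor genes 3 were higher and the list's median was 1.12. Grm4, a presynaptic receptor coupled to inhibitory G proteins, was at 34.4, 41.1, 26.8 and 67.7 CPM against 21.2 CPM in interneuron-selective cells (3.78 ± 0.49, adjusted p = 0.000408). Grm7, the presynaptic receptor that Elfn1 recruits, was at 539 ± 18.6 CPM and lay below the interneuron-selective mean of 771 ± 177 CPM. Its call (1.41 ± 0.33, adjusted p = 0.0238) was lost without animal 1 (0.109) and without animal 2 (0.141), and in either case 1 member of the list was called, against 4 without library 4. Grm5 was at 945, 633, 721 and 667 CPM and did not pass against the 6 types (1.12 ± 0.33, adjusted p = 0.0624).

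**Figure D4:**
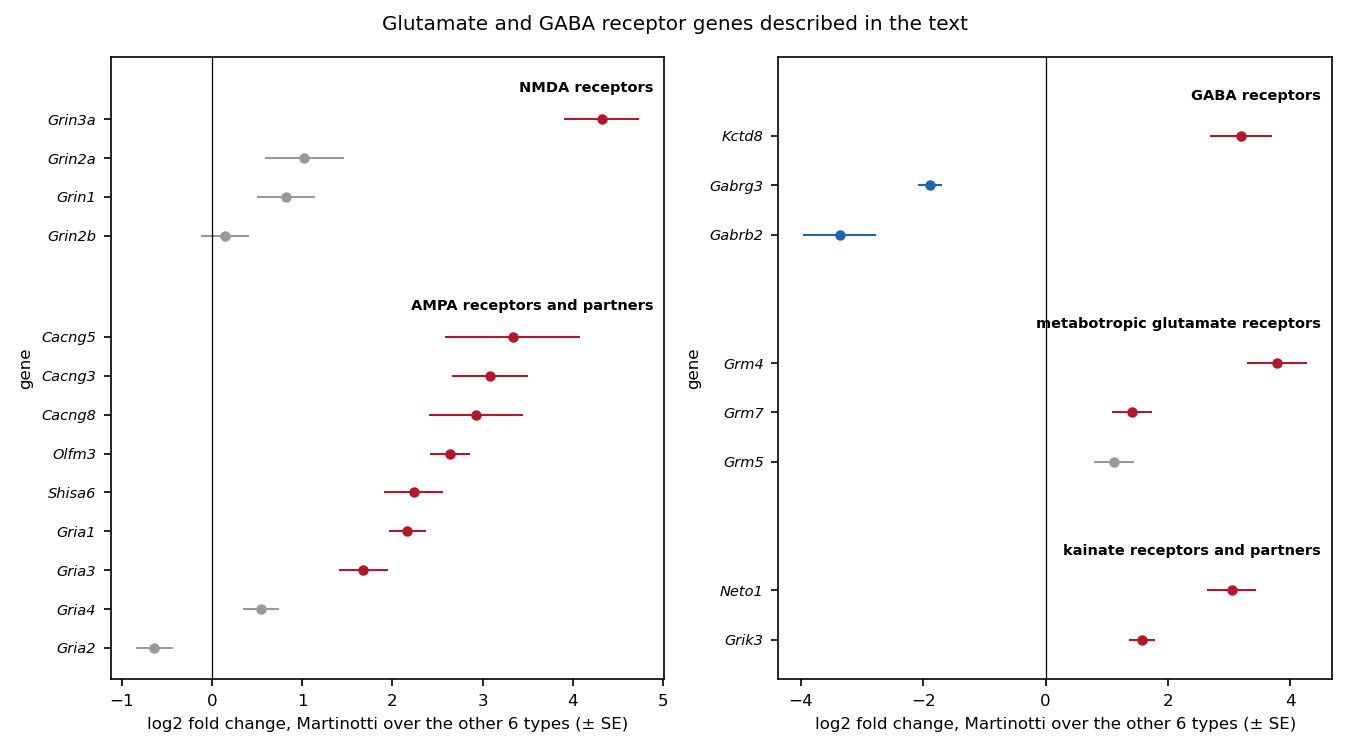
Log2 fold change ± SE of the receptor genes and partners named in the text, in Martinotti cells against the mean of the other 6 types, for genes with counts in every type (n = 2 Martinotti animals). Red and blue points passed an adjusted p under 0.05 as higher and lower, grey points did not; Grin3a, Grm4 and Cacng5 lie farthest to the right, and the called GABA-A receptor subunits lie on the left.

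Among GABA receptor genes most calls were lower. Of 17 tested genes 4 were lower and 1 higher (3 and 1 without animal 1 or library 4, 2 and 1 without animal 2), with a median of -0.15, and the 4 lower ones all encode subunits of GABA-A receptor channels. Gabrg3 was at 145, 119, 161 and 161 CPM against 279 CPM in long-projecting cells, the lowest other type (-1.90 ± 0.20, adjusted p = 6.49e-05). All libraries lay below every other type mean. Gabrb2, a beta subunit, was at 2.59, 24.7, 15.2 and 49.3 CPM (-3.37 ± 0.59, adjusted p = 0.00548).

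Long-projecting cells, the other Sst type, had 22.2 CPM of Gabrb2. Its call was lost without animal 1 (adjusted p = 0.0513). Kctd8, an auxiliary subunit of GABA-B receptors, was the higher one, at 437, 300, 371 and 168 CPM against 93.4 CPM in upper chandelier cells (3.19 ± 0.51, adjusted p = 0.00281).

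Among genes of the GABAergic phenotype, Gad1 was lower. Gad1, which makes most GABA, was at 635, 560, 614 and 520 CPM against 1517 CPM in the mean of the others (-1.28 ± 0.24, adjusted p = 0.00857; 0.104 without animal 2). Interneuron-selective cells had a like level of 526 ± 153 CPM. Gad2, which encodes the second GABA-synthesizing enzyme, was at 845, 1190, 1171 and 975 CPM and did not pass (0.77 ± 0.22, adjusted p = 0.0528). Slc32a1, the vesicular GABA transporter, was at 1892, 2004, 2034 and 1325 CPM and did not pass either (0.46 ± 0.15, adjusted p = 0.0887). Of 11 shared GABAergic genes 2 were lower and 0 higher (0 and 0 without animal 2, 3 and 2 without library 4). In summed cells, fewer cells with a gene and less RNA per cell cannot be told apart.

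Synapse organisers were called in both directions, with a median of -0.23 over 52 tested genes. Besides Elfn1, the higher ones included Nrxn2, Cbln4 and Ptprf. Ptprf was not followed through the fits that left out a sample. Cbln4, a secreted cerebellin that bridges neurexins to postsynaptic partners, was at 160, 65.8, 76.8 and 4.42 CPM, with library 4 under the interneuron-selective mean of 12.7 CPM (14.2-fold, adjusted p = 0.0135; 0.0927 without animal 1). Nrxn2, a neurexin of the presynaptic membrane, passed with 1.51-fold (0.82 ± 0.18, adjusted p = 0.0163), but not without animal 1 (0.144) or animal 2 (0.066).

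Cbln2, another cerebellin, had no count in any Martinotti cell and a mean of 594 CPM in the other types, at least 1642-fold more (adjusted p = 0.0277). That call was lost without animal 1 (0.15), animal 2 (0.154) or deep chandelier animal 11 (1). Il1rapl1, an adhesion protein of excitatory synapses, was at 60.3, 203, 113 and 119 CPM, below the mean of every other type, the lowest of which was 287 CPM in CCK-basket cells (-1.97 ± 0.26, adjusted p = 0.000532). Clstn2, a calsyntenin, was at 61.8, 178, 8.04 and 173 CPM, just under the long-projecting mean of 180 CPM in libraries 2 and 4 (-2.12 ± 0.23, adjusted p = 0.000116). Cntnap2, a neurexin relative of the axon membrane, was at 426, 254, 477 and 465 CPM (-1.27 ± 0.22, adjusted p = 0.00486; 0.0506 without animal 1). Without library 4 the list had 7 higher and 8 lower, without animal 1 it had 1 and 3, and without animal 2 it had 3 and 4.

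Of 24 cadherins and protocadherins 6 were higher and 1 lower (4 and 0 without animal 1, 6 and 0 without animal 2, 8 and 1 without library 4), with a median of 0.69. Cdh13, a cadherin anchored to the membrane by a lipid, was at 581, 818, 850 and 958 CPM against 263 CPM in long-projecting cells (6.36-fold; 2.89 ± 0.23, adjusted p = 9.56e-06). Cdh7 was at 126, 101, 329 and 113 CPM against 65.5 CPM in PV-basket cells (4.15 ± 0.50, adjusted p = 0.000231), with library 3 apart. Cdh4 was at 295, 315, 447 and 160 CPM, and library 4 lay under the long-projecting mean of 210 CPM (2.23 ± 0.37, adjusted p = 0.00346).

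Cdh22, at 63.7, 166, 138 and 72.9 CPM, was 10.1-fold above the others (adjusted p = 0.00216). Pcdh11x and Pcdh18 were the other 2, and their calls (adjusted p of 0.00318 and 0.00781) were lost without animal 1 (0.061 and 0.0763). Cdh12 was the lower one, at 26.3, 9.31, 28.6 and 39.7 CPM against 243 CPM in the others and 27.8 CPM in long-projecting cells (-2.90 ± 0.62, adjusted p = 0.0146; 0.111 without animal 1 and 0.0762 without animal 2). Chl1, an adhesion molecule of the L1 family, was at 1029, 1335, 1396 and 1898 CPM, above each other library (4.29-fold; 2.08 ± 0.29, adjusted p = 0.000816).

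Among guidance genes, Sema3a, a secreted semaphorin that repels axons and binds perineuronal nets, was at 101, 229, 66.97 and 115 CPM, with library 3 under the long-projecting mean of 76.5 CPM (6.56-fold; 3.65 ± 0.44, adjusted p = 0.000231). It was 1 of 2 higher genes among 27 semaphorins and plexins (3 without animal 1, 1 without animal 2 or library 4). Among 37 other guidance genes 1 was higher and 1 lower (2 and 2 without animal 1, 0 and 1 without animal 2, 4 and 1 without library 4), shares near those over all genes. The higher one was Dscaml1, a homophilic adhesion molecule, at 167, 228, 412 and 436 CPM with both libraries of animal 2 highest (1.43 ± 0.29, adjusted p = 0.0121; 0.35 without animal 2).

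In the extracellular matrix and its proteases 7 of 50 genes were higher and 2 lower (5 and 0 without animal 1 or animal 2, 7 and 1 without library 4), with a median of 0.31. Besides Reln they included Adamts18, a metalloprotease, whose libraries split within each animal, at 144, 5.78, 2.68 and 160 CPM. The highest other type had 9.30 CPM, above libraries 2 and 3 (24.1-fold; 5.06 ± 0.70, adjusted p = 0.000755). Timp2, a metalloprotease inhibitor, was at 686, 532, 1194 and 975 CPM, within reach of the long-projecting mean of 871 ± 46.5 CPM (1.63 ± 0.19, adjusted p = 0.000223).

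Timp3, a related inhibitor, was at 263, 205, 74.1 and 47.8 CPM against at most 19.1 CPM in another type (17.5-fold, adjusted p = 0.0019; 0.0725 without animal 1). Col19a1, a collagen made by interneurons, was at 413, 562, 1276 and 458 CPM, above each of the other libraries (2.33 ± 0.37, adjusted p = 0.00243; 0.0662 without animal 2). Lama4, a laminin chain outside that list, was at 150, 26.3, 106 and 68.4 CPM against 9.09 CPM (14.3-fold; 4.10 ± 0.44, adjusted p = 7.94e-05).

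Among 44 enzymes that build or cut heparan and chondroitin sulfate 3 were higher and 1 lower (2 and 0 without animal 1, 3 and 0 without animal 2). Next to Chst15 stood Hpse, heparanase, which cuts heparan sulfate chains, at 40.3, 162, 22.3 and 196 CPM against at most 12.6 CPM in another type (33.1-fold; 5.66 ± 0.64, adjusted p = 0.000136). Its libraries also split within each animal, with libraries 2 and 4 high where Chst15 was low. Over all genes 3.91% were called higher and 1.69% lower, not far from the shares in this list, which holds the marker Chst15.

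Of 45 voltage-gated potassium channel genes 4 were higher and 6 lower, but 0 and 4 without animal 1, 2 and 3 without animal 2 and 5 and 5 without library 4. The higher ones included Kcna2 and Kcna6, pore subunits of low-threshold channels. Kcna2 was at 322, 384, 255 and 511 CPM, below the PV-basket mean of 628 CPM (1.39 ± 0.29, adjusted p = 0.0133; 0.0665 without animal 1 and 0.11 without animal 2). Kcna6 was at 445, 498, 405 and 398 CPM, above the PV-basket mean of 341 CPM (1.63 ± 0.31, adjusted p = 0.00857; 0.0791 without animal 1).

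The lower ones included Kcnh7, a pore subunit of the ether-a-go-go family, at 14.1, 44.6, 57.1 and 28.0 CPM against 260 CPM in the others (-2.53 ± 0.41, adjusted p = 0.00313). Kcnip4, a calcium-binding partner of A-type channels, was at 18.7, 19.1, 14.8 and 22.4 CPM, all below the lowest other type with 69.2 CPM (-3.48 ± 0.54, adjusted p = 0.00227). Its relative Kcnip3 had 1 count in all Martinotti cells against 15.0 CPM in the others (adjusted p = 0.00892; 0.0818 without animal 2).

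Kcnk13, a two-pore leak channel, was at 22.9, 184, 59.8 and 73.6 CPM, and library 1 lay under the deep chandelier mean of 40.0 CPM (9.22-fold; 4.35 ± 0.55, adjusted p = 0.000363). Of 16 voltage-gated calcium channel genes 3 were higher and 1 lower (2 and 1 without animal 1, 1 and 0 without animal 2). Cacnb4, a beta subunit, was at 792, 761, 1069 and 467 CPM (1.48 ± 0.18, adjusted p = 0.00029), with library 4 under the deep chandelier mean of 627 CPM. Cacna2d3, an alpha2delta subunit, was at 560, 321, 594 and 723 CPM (1.17 ± 0.25, adjusted p = 0.0138; 0.237 without animal 2). 

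Chrm3, a muscarinic receptor coupled to phospholipase C, was at 499, 582, 649 and 508 CPM, around the CCK-basket mean of 557 CPM (1.6 ± 0.28, adjusted p = 0.00463), and was 1 of 3 higher among 13 acetylcholine receptor genes (1 without animal 1, 2 without animal 2, 1 without library 2). Of 45 genes of vesicle release 6 were higher and 1 lower (3 and 0 without animal 1 or animal 2, 6 and 0 without library 4), with a median of 0.31. Besides Unc13c they included Rab3b, a vesicle GTPase, at 383, 486, 764 and 590 CPM and shared with long-projecting cells (523 ± 95.6 CPM; 2.56 ± 0.33, adjusted p = 0.000373). Syn3, a synapsin, was at 292, 284, 88.8 and 83.2 CPM (2.31 ± 0.37, adjusted p = 0.00273; 0.234 without animal 1), so the 2 animals did not overlap. Syt13, a synaptotagmin, was at 580, 435, 1385 and 371 CPM with library 3 apart (1.06 ± 0.20, adjusted p = 0.00802; 0.232 without library 3 and 0.205 without animal 2).

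Calcium-binding proteins had 2 of 19 genes higher and 2 lower, but 0 and 1 without animal 1, 0 and 0 without animal 2 and 1 and 2 without library 2, 3 or 4. Calb1, calbindin, was at 1191, 819, 487 and 222 CPM against 219 CPM in PV-basket cells (7.07-fold, adjusted p = 0.0426). Every library was above the other type means, but the call was lost in 13 of the 20 fits without a replicate or library, with an adjusted p of 0.259 without animal 1 and 0.0995 without animal 2. Ncald, neurocalcin delta, was at 117, 145, 92.9 and 29.9 CPM against 403 CPM in the others (-2.02 ± 0.42, adjusted p = 0.0132; 0.159 without animal 2).

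In cyclic nucleotide signalling 5 of 31 genes were higher, Nppc and Npr3 among them, and 3 were lower (5 and 1 without animal 1, 4 and 0 without animal 2, 5 and 5 without library 4). Pde1a, a phosphodiesterase switched on by calcium and calmodulin, was at 543, 408, 403 and 354 CPM against 892 ± 135 CPM in long-projecting and 6.41 CPM in deep chandelier cells (3.93 ± 0.23, adjusted p = 5.87e-07). Adcy2, an adenylyl cyclase, was at 429, 693, 421 and 598 CPM against 235 CPM in CCK-basket cells, above each other library (4.33-fold; 2.69 ± 0.22, adjusted p = 1.03e-05).

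Of 16 RGS proteins, which speed the shut-off of G proteins, 3 were higher and 1 lower (2 and 0 without animal 2, 4 and 1 without library 4). Rgs6 was at 213, 233, 441 and 297 CPM against 181 CPM in CCK-basket cells (2.68 ± 0.33, adjusted p = 0.000302). Rgs17 was at 463, 432, 488 and 347 CPM against 275 CPM in deep chandelier cells (1.69 ± 0.27, adjusted p = 0.00313). All libraries of both were above the other type means.

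Genes of the medial eminence lineage were higher in 5 of 7, with a median of 1.51; 2 of the 6 other types come from the caudal eminence. Lhx6, the lineage's homeodomain factor, was at 83.6, 89.2, 130 and 19.9 CPM, against 248 CPM in deep chandelier cells and no count in interneuron-selective cells (adjusted p = 0.000809). Its mean was 0.697 times that of the others on the linear scale, and the test, which averages the 6 types on the log scale, called it higher. Nxph1, a secreted neurexin ligand of the lineage, was at 862, 379, 822 and 475 CPM (1.93 ± 0.29, adjusted p = 0.00183), with 839 CPM in deep chandelier cells. Libraries of these genes overlapped the levels of other medial types.

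Sox6 and Maf were called as well. Maf was at 398, 253, 287 and 299 CPM (1.45 ± 0.35, adjusted p = 0.0272), and its call was lost without animal 1 (0.157), animal 2 (0.123), PV-basket animals 9 and 10 (0.0544) or upper chandelier animal 13 (0.0508). Sox6 was at 381, 210, 401 and 382 CPM (1.48 ± 0.24, adjusted p = 0.00326; 0.0645 without animal 2). The count in the list was 4 without animal 1, 2 without animal 2 and 5 without library 4.

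Among 69 neuronal transcription regulators 9 were higher and 2 lower (6 and 4 without animal 1, 3 and 2 without animal 2, 10 and 2 without library 4), with a median of 0.16. Tox, a chromatin protein with an HMG box, was at 368, 416, 362 and 317 CPM against 139 CPM in deep chandelier cells and 1.36 CPM in interneuron-selective cells (4.08 ± 0.48, adjusted p = 0.000199). Nfib, a nuclear factor of the NFI family, was at 4.81, 3.21, 39.3 and 28.7 CPM against 433 CPM in the others and 13.5 CPM in long-projecting cells (-3.69 ± 0.66, adjusted p = 0.00628). Npas1, a caudal eminence factor, was at 54.4, 81.9, 244 and 56.7 CPM with library 3 apart. Every library lay below the CCK-basket mean of 271 CPM. On the linear scale the Npas1 mean was 1.30 times that of the others, whose types the test averages on the log scale. Its higher call (adjusted p = 0.0325) was lost without library 3 (0.152), animal 1 (0.0544), animal 2 (0.354), PV-basket animals 7 and 8 (0.06) or 9 and 10 (0.0612). Adarb2, the other called caudal gene, was lower, at 32.9, 46.2, 62.5 and 61.8 CPM against 6462 CPM in CCK-basket cells (-3.19 ± 0.53, adjusted p = 0.00399).

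The 12 genes named by rule on the lower side were at 0 to 22.4 CPM in the Martinotti libraries and present in every other type. Ptpre, a receptor-type tyrosine phosphatase, had 2 counts in the 62 cells, at 0, 0.321, 0 and 0.736 CPM, against 34.7 to 202 CPM in the other type means (adjusted p = 0.000169). Sez6, a membrane protein of dendrites, had 1 count against 11.8 to 763 CPM (adjusted p = 4.96e-05). Id2, an inhibitor of helix-loop-helix factors, had none against 4.99 to 1141 CPM, and relative to their mean it was at least 680-fold lower (adjusted p = 0.00284).

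Gpr176, an orphan receptor, was at 1.11, 0.642, 0 and 3.68 CPM against 115 CPM (-5.94 ± 0.58, adjusted p = 4.17e-05). Sh3bgrl, a small thioredoxin-like protein, was at 3.70, 0, 0 and 0.736 CPM against 61.7 CPM (-5.11 ± 0.70, adjusted p = 0.000732). Besides Kcnip4 and Cbln2, the others were Sept4, Parm1, Tspyl3, Zfand6 and Rasgrf1. Their adjusted p was 0.00628, 0.00934, 0.0197, 0.00701 and 0.0477. All 5 were lost without animal 2, with an adjusted p of 0.064 for Sept4, 0.0747 for Parm1, 0.169 for Tspyl3, 0.0881 for Zfand6 and 0.11 for Rasgrf1, and Parm1 (0.0763) and Rasgrf1 (0.238) also without animal 1.

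Against long-projecting cells, the other Sst type, 607 genes differed (3.91%), 280 higher in Martinotti cells (1.8%) and 327 lower (2.11%), and the median log2 fold change over all genes was -0.05. A fit with a spread for each type gave the opposite balance, with 430 higher and 248 lower. Reln was 5.24 ± 0.56 higher on the log2 scale (adjusted p = 0.000303), with 12.5 to 46.8 CPM and a median of 17.1 CPM in the 9 long-projecting libraries. Mef2c, an activity-dependent transcription factor, was at 638, 528, 425 and 682 CPM against 20.5 to 184 CPM, median 49.7, in the long-projecting libraries (2.95 ± 0.28, adjusted p = 9.57e-05). Zeb2, a zinc-finger factor of interneuron migration, was at 365, 436, 345 and 425 CPM against 0.863 to 40.4 CPM, median 11.1 (4.60 ± 0.52, adjusted p = 0.000368). No Martinotti library overlapped a long-projecting library in these genes. The share of all tested genes without such overlap was not counted.

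Receptor genes and a peptide gene were higher as well. Grm5, the postsynaptic receptor mGluR5, was higher by 3.70 ± 0.40 on the log2 scale (30.2 to 138 CPM in long-projecting libraries, median 44.0; adjusted p = 0.000303) and Gria1 by 2.26 ± 0.27 (779 to 993 CPM, median 920; adjusted p = 0.000641). Crh, corticotropin-releasing hormone, was at 8.51, 460, 74.1 and 288 CPM against 0 to 4.61 CPM (8.64 ± 1.45, adjusted p = 0.00479). Libraries 1 and 3 were low in Crh and libraries 2 and 4 high, so it split within each animal.

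Genes lower than in long-projecting cells included Gad1 (1646 to 2884 CPM there, median 2252; -2.17 ± 0.28, adjusted p = 0.000849) and Pam, the enzyme that amidates peptides. Pam was at 1245, 952, 630 and 626 CPM against 2222 to 3448 CPM (-1.91 ± 0.25, adjusted p = 0.000935). Ntn1, netrin-1, was at 5.92, 5.14, 0 and 14.7 CPM against 51.8 to 176 CPM (-4.10 ± 0.65, adjusted p = 0.0031). Npy was lower (-2.47 ± 0.53, adjusted p = 0.02), but not without animal 1 (0.0769), animal 2 (0.17) or long-projecting animal 16 (0.0623). Chrm2, a muscarinic receptor coupled to inhibitory G proteins, was at 9.99, 39.8, 11.6 and 13.3 CPM against 130 to 343 CPM (-3.67 ± 0.66, adjusted p = 0.00721; 0.095 without animal 2). The libraries of the 2 types did not overlap in any of these genes, a trait not counted over all tested genes. The long-projecting marker genes summed to 970 and 1094 CPM in animal 1 and to 420 and 407 CPM in animal 2, and their part in this comparison was not tested.

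Against interneuron-selective cells, which shared the CR-Cre driver, the sex and the flow cell, 480 genes differed (3.09%), 261 higher (1.68%) and 219 lower (1.41%). Pde1a was higher by 5.98 ± 0.50 on the log2 scale (4.95 to 8.79 CPM in the 4 interneuron-selective libraries; adjusted p = 3.27e-05) and Nxph1 by 5.97 ± 0.57 (7.33 to 18.8 CPM; adjusted p = 0.00012). Lhx6 and Oxtr had no count in interneuron-selective cells (adjusted p of 0.000136 and 0.00129). Npy was higher by 5.28 ± 0.65 (adjusted p = 0.000719), Tox by 8.23 ± 1.17 (adjusted p = 0.00203) and Gria1 by 3.29 ± 0.36 (171 to 841 CPM; adjusted p = 0.000307).

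Gad2 was higher by 2.07 ± 0.32 (184 to 418 CPM; adjusted p = 0.00372), while Gad1 did not pass (0.29 ± 0.29, adjusted p = 0.677). Prkacb, a catalytic subunit of protein kinase A, was at 266, 221, 230 and 382 CPM against 25.4 to 138 CPM (2.32 ± 0.28, adjusted p = 0.000635). Adarb2, a marker of the caudal lineage, was lower than the 3643 to 5133 CPM of interneuron-selective libraries (-6.28 ± 0.68, adjusted p = 0.000307). Prox1, Sp8 and Htr3a, genes of the caudal lineage, had no Martinotti count against 106 ± 16.3, 33.2 ± 4.59 and 171 ± 149 CPM. Their calls (adjusted p of 0.0135, 0.0135 and 0.0125) were lost without animal 1 (0.0779, 0.0583 and 0.0771), and those of Prox1 and Htr3a also without animal 2 (0.0655 and 0.0626).

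**Figure D5:**
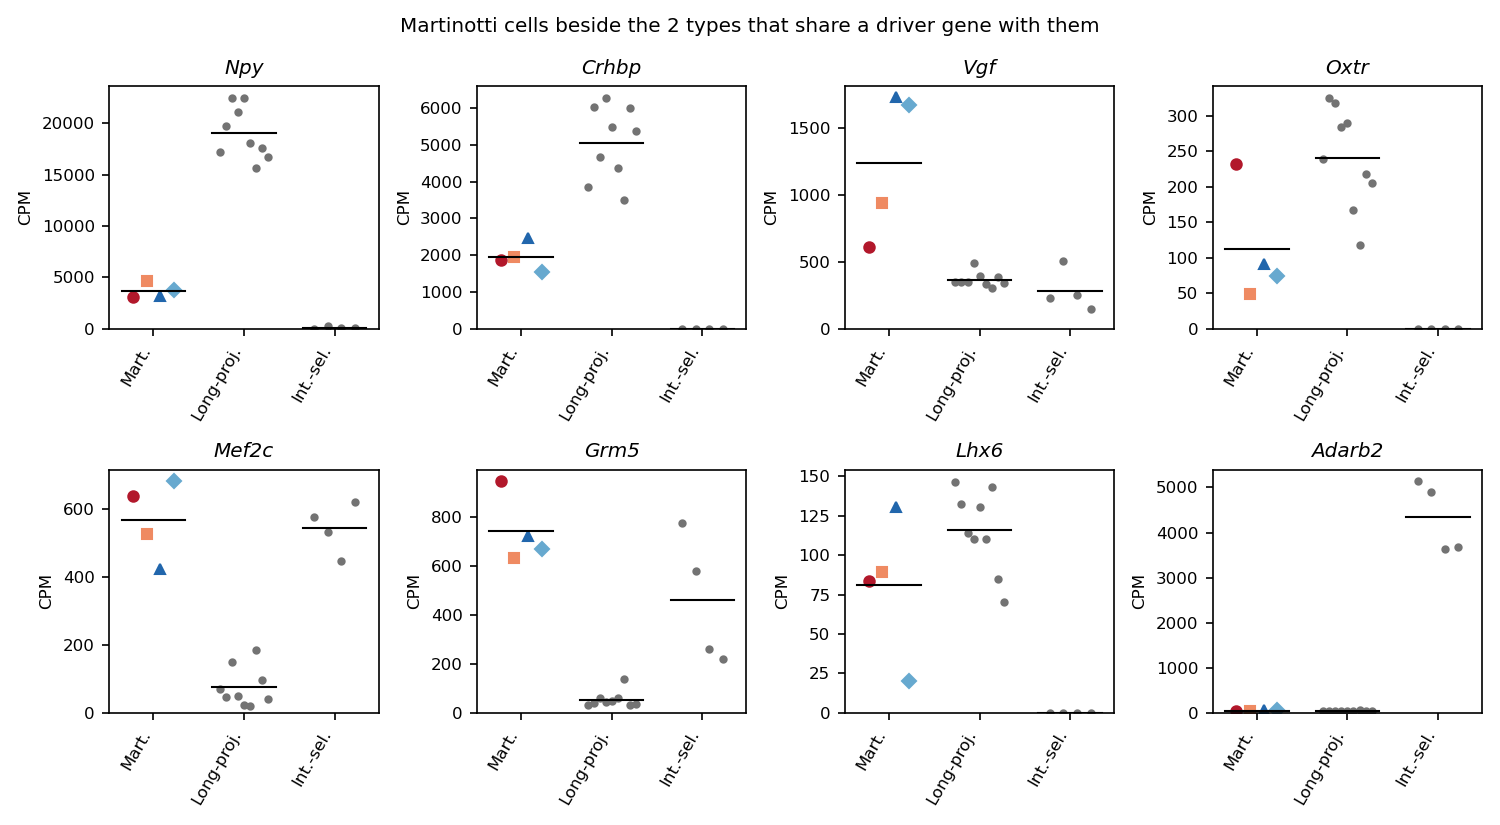
Level (CPM, linear axis from 0) of 8 genes in the Martinotti, long-projecting and interneuron-selective libraries; points are libraries, the Martinotti ones in colour, and the black line is their mean. Npy and Crhbp are highest in long-projecting cells, Vgf in Martinotti cells, Mef2c and Grm5 are low in long-projecting cells, Lhx6 and Oxtr are at 0 in interneuron-selective cells and Adarb2 is high there.

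Both comparisons use the same Martinotti samples. Sez6 and Ptpre were lower in each, with 11.8 ± 5.09 and 34.7 ± 22.5 CPM in long-projecting cells (adjusted p of 0.0017 and 0.00123). In interneuron-selective cells they had 763 ± 419 and 113 ± 23.0 CPM (edgeR adjusted p of 3.27e-05 and 0.000635). These calls of Sez6 and Ptpre were not followed through the fits that left out a sample.

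The 4 libraries varied widely among themselves. Over 4615 tested genes with a mean of at least 50 CPM, the highest library was a median of 3.03 times the lowest, with 1.6 at the 10th and 13.5 at the 90th percentile, and 632 genes (13.7%) exceeded 10 times. Over the 379 of these called higher than the other types the median was 2.86, and 68 (17.9%) exceeded 10 times. The median fold between a pair of libraries was 1.54 within animal 1 and 1.81 within animal 2, against 1.63 to 1.79 between animals. Animal 2 differed from animal 1 in 0 of 11104 tested genes (0%) in edgeR, where libraries were the replicates (785 passed an unadjusted p under 0.05), and in 209 in DESeq2.

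Activity-regulated genes were uneven too. Fos, an immediate early gene, was at 285, 79.6, 150 and 1731 CPM, and Nr4a2, another, at 0, 0, 0.893 and 130 CPM, with library 4 apart in both. Nr4a2 was the only called gene among 18 immediate early genes (adjusted p = 0.0196), a share near that over all genes, and 3 were called without library 2 or library 3. That call was lost without library 4 (0.488), animal 2 (1), PV-basket animals 7 and 8 (0.0632) or 9 and 10 (0.0598), and by DESeq2. Fos did not pass (0.53 ± 0.58, adjusted p = 0.706).

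The 10 genes with the highest CPM were Meg3, Tmsb4x, Gria1, Atp6v0c, Atp6v0c-ps2, Npy, Malat1, Tuba1b, Syt1 and Tuba1a. Atp6v0c and its pseudogene Atp6v0c-ps2 had the same counts in each library, so their reads cannot be told apart. Meg3, a neuronal noncoding RNA, was at 5793, 4679, 7535 and 6033 CPM (0.77 ± 0.14, adjusted p = 0.00781). Malat1, a nuclear noncoding RNA, ranged from 1011 to 6320 CPM, and its libraries were again split within each animal.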

How the data were processed

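RNA of single neurons was amplified in 2 linear rounds and sequenced in pools of up to 16 cells, with a 9-base cell barcode and a 10-base random tag, per the labels' protocols. The submitters' processing notes name Bowtie 0.12.7 and mm9. The values deposited are the authors' expected counts, 23335 genes by 584 cells, of which 4.07% of those above 0 are not whole (tolerance 1e-06). Whether they count reads or tags, how strand was treated and how fractions arose are not given in the sources used here. Of the 23335 genes, 3813 had no count and 6733 none in Martinotti cells, and Rn45s took 0.786% of all counts. The labels number 18 animals, whereas the design text gives 4, and upper chandelier animal 14, labelled with 40 and 58 days, was used as 1 replicate.

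Expected counts were summed over the cells of an animal and rounded. PV-basket animals 7 and 8, and 9 and 10, were summed as 1 replicate each, since 8 pairs of their libraries differed little beyond counting noise (ratios of 1.25 to 1.93, next pair 9.47). The fit held 16 replicates of 7 types and 15533 genes after filterByExpr, with 9 residual degrees of freedom and a coefficient of variation of 61.7%. It used edgeR 4.0.16 (TMM scaling, quasi-likelihood test, Benjamini-Hochberg adjustment, threshold 0.05) in R 4.3.3. Each comparison of Martinotti cells is a contrast in this fit. The 2 animals were compared with libraries as replicates, in a fit of their own over 11104 genes. The script was tested on simulated data.

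Folds divide the Martinotti mean CPM by the average over the 6 other types, each weighted alike. Fitted log2 fold changes average types on the log scale. They are given only for genes with counts in every type, except Nr4a2 and Pdgfrb in fits that left out a sample. Alternatives were RLE scaling, DESeq2 1.42.0, no filter, 18 animals, limma 3.58.1 with a spread for each type or with libraries weighted equally, female types only, each replicate or Martinotti library left out, and libraries as units, the last chosen after seeing the data.

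The cell type, the gene lists and the rules were chosen with earlier results of these data known. Named genes were the 6 markers, 24 higher and 12 lower genes (called, at least 50 CPM on the side that is higher, ranked by the ratio between the nearest Martinotti library and the nearest type mean), the 10 highest genes, and list members. Driver genes of any type (Sst, Calb2, Nos1, Vip, Cck, Pvalb, Nkx2-1) entered no count or median by list. The list members described were mostly those called in all 20 fits that left out a replicate or library, picked after their values were seen. Some results are not reported here.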

Additional observations from a re-analysis of the deposited data

Results flagged for a closer look

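Among 125 genes named or examined for the 4 Martinotti libraries, 14 had a library whose gap to the nearest other library, as a share of the whole range, exceeded Dixon's critical value for 4 samples. For normally distributed values chance alone flags about 1 in 20 groups of 4. These values were CPM, and a gene with counts in 1 library only has a gap of 1 whatever its level. The 14 of 125 can therefore not be set against that rate. Library 4 was the highest in Pdgfrb (gap of 1 of the range, 146 CPM against 0), Acta2 (1, 91.2 CPM against 0), Nr4a2 (0.993), Fos (0.876) and Sez6 (1, a single count). Pdgfrb and Acta2 are mural-cell markers, and the mural and blood lists were also highest in library 4. Pdgfrb was called higher than the other types (edgeR adjusted p = 0.00746), and that call was lost without animal 2 (adjusted p = 1).

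Library 3 was the highest in Slc17a7 (0.887), the vesicular glutamate transporter of excitatory neurons, with 5.55, 13.8, 99.1 and 2.94 CPM. Its call as higher than the other types (edgeR adjusted p = 0.0467) was lost in 13 of the 20 fits that left out a replicate or library, with an adjusted p of 0.658 without animal 2. Library 3 was also the highest in Npas1 (0.855) and Cdh7 (0.891) and the lowest in Cacng3 (0.936).

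Library 2 was the highest in Cort (0.893), Pvalb (0.900) and Kcnip3 (1, a single count) and the lowest in Sox6 (0.898). Library 1 was the only one with counts of Sept4 (1, at 1.48 CPM). What sets single libraries apart was not tested.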

How the results depend on the processing

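No paired analysis was possible because animal numbers are not shared between types and the numbers in the titles only count libraries. The count of genes called against the other 6 types was 870. It was 1731 by DESeq2, 1433 with 18 animals, 365 with a spread for each type (333 higher and 32 lower), 1616 with libraries as units and 128 among the types labelled female. Leaving out replicates or libraries gave 316 to 1577, with 316 without animal 2, 562 without PV-basket animals 7 and 8, 555 without 9 and 10, 1330 without deep chandelier animal 11 and 1577 without animal 12. Under RLE scaling, no filter, equal weights for libraries and the other samples left out the total stayed within 1.5 times, but with equal weights the split turned to 345 higher and 391 lower.

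Against long-projecting cells (607 genes) the split turned from 280 higher and 327 lower to 430 and 248 with a spread for each type, and the count was 1795 by DESeq2, 1195 with 18 animals and 2239 with libraries as units. Leaving out replicates gave 186 to 1140, with 186 without animal 2, 384 and 385 without a PV-basket replicate, 1140 and 1137 without deep chandelier animals 11 and 12, and 303, 266, 333 and 303 without long-projecting animals 15, 16, 17 and 18. Against interneuron-selective cells (480 genes) it was 1512 by DESeq2, 900 with 18 animals, 104 with a spread for each type, 774 with libraries weighted equally and 859 with libraries as units, a setting chosen after seeing the data. Leaving out replicates gave 271 to 855, with 310 and 284 without animals 1 and 2, 271 without interneuron-selective animal 4, 291 and 294 without a PV-basket replicate, 852 and 855 without deep chandelier animals 11 and 12, and 317 and 312 without long-projecting animals 15 and 16. Between the 2 Martinotti animals it was 0, and 209 by DESeq2 (80 higher and 129 lower in animal 2). It was 0 or 1 when a library was left out, the 1 without library 3. The cause of these shifts was not tested.

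Of 107 called genes followed against the 6 types, 60 were called in all 20 fits that left out a replicate or library, 28 were lost without animal 1 and 36 without animal 2. Among the female types alone 51 were lost, with a spread for each type 25 and by DESeq2 1. Without animal 2 the log2 fold change of Nr4a2 turned to -1.24 and that of Pdgfrb to -3.00. Over the fits that left out a sample they ranged from -1.24 to 10.07 and from -3.00 to 8.59. Libraries 1 and 2 had no count of either gene, so the negative values lie at the floor and are not a measured decrease. With 1 Martinotti animal the fit assumes that it varies like the other types. Shallow libraries 3 and 4 limit low genes, for which 3 counts are 2.68 and 2.21 CPM.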
